A study of Mus musculus with 18 samples.

Results

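The miRNAs described here are miR-155, miR-146a, miR-146b, miR-132 and miR-212, which are made in response to inflammatory and other activating signals. They are 5 of the 2009 miRNA hairpin loci counted in the series, and were picked by their mouse GENCODE symbols, Mir155, Mir146 (the symbol for miR-146a), Mir146b, Mir132 and Mir212. Small RNA libraries were made from stromal cells cultured out of adipose tissue (ASC), which are fibroblast-like mesenchymal cells, and from the membrane-bound extracellular vesicles (EVs) shed into their medium. All material came from adult mice of the strain given in the labels as NGL. Primed EVs (n = 5) and primed ASC (n = 4) came from cultures given interferon gamma for 24 h, and naive EVs (n = 5) and naive ASC (n = 4) from cultures without it. All groups shared alpha MEM with 2% serum freed of EVs, for 48 h. RNA was isolated with 1 kit from EVs and by another method from cells, so an EV to ASC difference cannot be told apart from a difference between the isolation methods. Whether replicates stem from separate animals is not given, and p-values therefore cover the spread between these samples, which may be technical.

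The priming comparisons asked what interferon gamma changed in the cargo of EVs and in the cells, and the comparisons of EVs with cells asked how cargo differs from its source. Libraries held 626951 to 3052942 counts in primed EVs, 613448 to 2245823 in naive EVs, 180812 to 895721 in primed ASC and 486237 to 926183 in naive ASC. Values are in CPM, each count divided by its library total after scaling by trimmed mean of M-values (TMM). TMM factors were 0.678 to 0.879, 0.803 to 1.08, 1.15 to 1.33 and 1.18 to 1.56 in the same order of groups, so levels set between EVs and cells lean on this scaling. All of 10 listed mesenchymal miRNA loci had counts in every group, and together they took 71.4% ± 0.847 of counts in primed EVs, 68.8% ± 1.34 in naive EVs, 44.9% ± 3.99 in primed ASC and 49.5% ± 10.1 in naive ASC (SD, n = 5, 5, 4 and 4). Singly they split between EVs and cells. Of the 9 that could be tested edgeR called 3 higher and 3 lower in naive EVs (33.5% and 32.7% of all loci). In primed EVs it called 4 higher and 3 lower (35.9% and 32.2% of all loci). In such bulk samples fewer cells of a type and less RNA per cell cannot be told apart.

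A miRNA is cut from a hairpin precursor and pairs through its seed, bases 2 to 8 from the 5′ end, with target mRNAs, which it represses. miR-155 is induced through NF-kB and AP-1 in activated immune cells and represses Socs1, an inhibitor of cytokine signalling. miR-146a and miR-146b are induced by NF-kB and repress Irak1 and Traf6, which carry signals to NF-kB, and so act as a brake. miR-132 and miR-212 come from 1 primary transcript that is induced through CREB, a factor activated by many stimuli, and miR-132 represses acetylcholinesterase. The files count whole hairpins, so both arms of each are in its count.

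The arm by which each miRNA is best known is shown to make clear which members can share targets. Sequences are from RefSeq (GRCm38.p6), where all 5 loci were matched, and capitals mark the seed.
miR-155-5p: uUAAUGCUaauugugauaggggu
miR-146a-5p: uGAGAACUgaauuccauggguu
miR-146b-5p: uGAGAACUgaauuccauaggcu
miR-132-3p: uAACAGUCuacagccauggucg
miR-212-3p: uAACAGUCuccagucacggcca

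The members thus hold 3 seeds. The seed GAGAACU belongs to both miR-146 forms, which share 20 of 22 bases and differ by G18A and U21C (miR-146a-5p base first, counted from the 5′ end). The seed AACAGUC belongs to miR-132-3p and miR-212-3p, which share 17 of 22 bases and differ by A10C, C14U, U17C, U20C and G22A (miR-132-3p base first). In the RefSeq table no other mouse mature miRNA has either of these 2 seeds, and UAAUGCU is found in miR-155-5p alone. How the alignment assigned short or mismatched reads between the 2 forms of a pair is not known here, so the split within each pair is uncertain.

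Mir155 (ENSMUSG00000065397) lies on the plus strand of chromosome 16 from 84714140 to 84714204 (GRCm38, as are all coordinates here), in an exon of the long noncoding RNA Mir155hg. Mir146 (ENSMUSG00000065601) is on the minus strand of chromosome 11 from 43374397 to 43374461, where GENCODE annotates no other gene. Mir146b (ENSMUSG00000070127) is on the plus strand of chromosome 19 from 46342762 to 46342870 in an intron of Mfsd13a. Mir212 (ENSMUSG00000065590) and Mir132 (ENSMUSG00000065537) are neighbours on the plus strand of chromosome 11, from 75173388 to 75173478 and from 75173665 to 75173765, with 186 bases between them, both in an intron of the processed transcript 1700016P03Rik. The coordinates are those of the files, and GENCODE M21 places the ends of Mir132 differently.

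Divided by hairpin length, Mir155 had the highest mean of the 5 loci, with 2271 ± 849 CPM per 100 bases in primed EVs, 1439 ± 159 in naive EVs, 2358 ± 777 in primed ASC and 1981 ± 717 in naive ASC (SD, n = 5, 5, 4 and 4). Mir132 came next, at 1452 ± 455, 1062 ± 263, 1558 ± 525 and 1958 ± 512 CPM per 100 bases in the same order. The per-length values of Mir155 and Mir132 overlapped between libraries in all 4 groups, and in naive ASC their means were nearly equal. Mir212 was at 345 ± 138, 289 ± 86.4, 287 ± 109 and 398 ± 143, and Mir146 at 123 ± 77.7, 112 ± 72.9, 93.3 ± 26.2 and 62.8 ± 32.2 CPM per 100 bases. Mir146b was lowest, at 7.41 ± 5.88, 6.48 ± 1.82, 10.9 ± 2.53 and 6.24 ± 2.21. This order of means per hairpin length held in all 4 groups. Without division by length Mir132 had a higher mean CPM than Mir155 in naive EVs (1072 against 935), primed ASC (1573 against 1533) and naive ASC (1978 against 1287). In primed EVs the means were nearly equal (1467 for Mir132 against 1476 for Mir155). The lead of Mir155 in those groups thus rests on the annotated hairpin lengths, 65 bases for Mir155 and 101 for Mir132. The mature arms shown above are 23 bases long for Mir155 and 22 for Mir132, whatever the hairpin length. Whether counts scale with hairpin length was not tested, so the per-length order and ranks are not to be read as an order of abundance. By this per-length level Mir155 ranked 49th, 60th, 46th and 49th among the 245 loci that passed the filter on low counts, and Mir146 ranked 141st, 147th, 147th and 159th. The 5 loci together took 0.250% ± 0.0250, 0.219% ± 0.0474, 0.422% ± 0.119 and 0.479% ± 0.131 of all counts. They are thus a small part of what was sequenced, with 4 loci at counts that allow a test and Mir146b below that.

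**Figure D1:**
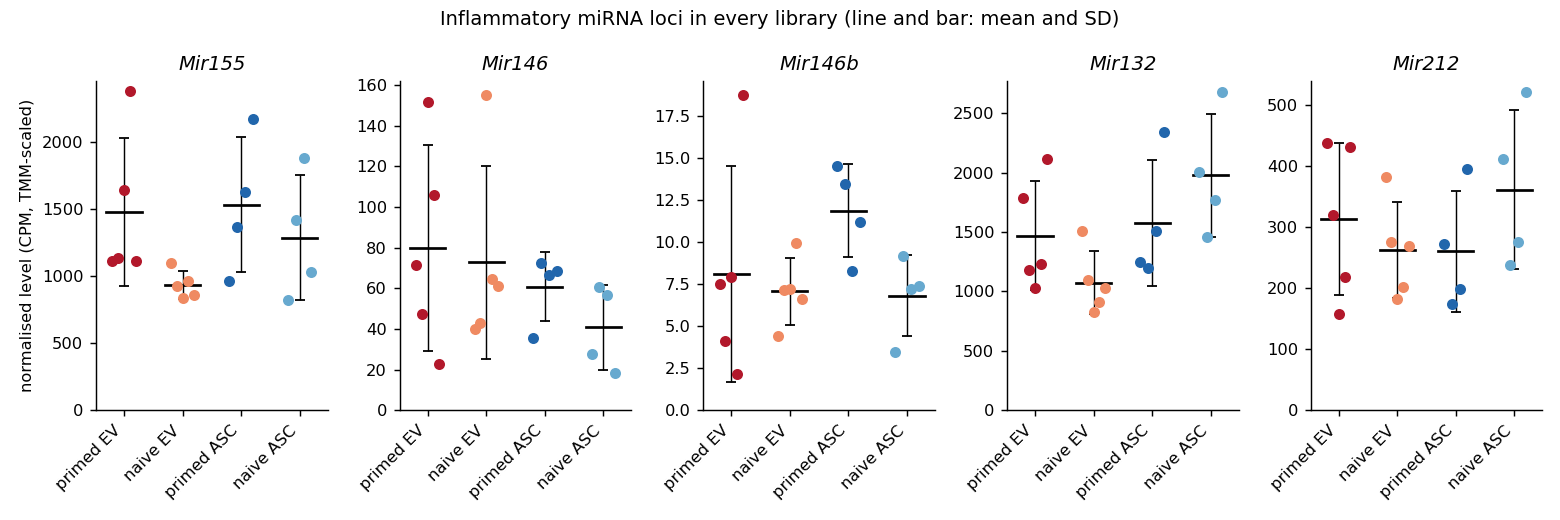
Normalised level (CPM, TMM-scaled, linear axes from 0) of each of the 5 loci in every library, with primed EVs, naive EVs, primed ASC and naive ASC from left to right; points are libraries, lines means and bars SD. For Mir155 all 5 primed EV libraries (1112 to 2377 CPM) sit above the 5 naive EV libraries (835 to 1097 CPM), and no other pair of groups that was compared is free of overlap for any locus.

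Priming was set against naive culture first in EVs. Mir155 had 1112, 1137, 1642, 2377 and 1114 CPM in primed EVs 1 to 5, against 1097, 925, 835, 963 and 858 CPM in naive EVs 1 to 5. The groups did not overlap, but primed EV 1, 5 and 2 lay just above naive EV 1, and the distance came mainly from primed EV 3 and 4. The fitted difference was 1.58-fold (log2 fold change 0.66, SE 0.26), with an unadjusted p of 0.0201 in edgeR's quasi-likelihood test. Benjamini-Hochberg adjustment over 245 loci gave an adjusted p of 0.379 in that edgeR test, so the difference did not pass. Only 6 of the 245 loci (2.45%) were free of overlap in this comparison, among them Mir155. As shares of raw library counts the groups did overlap, at 0.0794% to 0.161% in primed EVs and 0.0670% to 0.1001% in naive EVs, with 2 of the 5 primed libraries above all naive ones.

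The other members did not pass in EVs either. Mir146 had 71.4, 47.3, 152, 106 and 22.9 CPM in primed EVs 1 to 5, against 39.7, 42.7, 155, 64.7 and 61.1 CPM in naive EVs 1 to 5. Replicate 3 was by far the highest in naive EVs and the highest in primed EVs, and the lowest value of all 10 was a primed one. The log2 fold change was 0.14 (SE 0.46, edgeR quasi-likelihood adjusted p = 0.936) and took a negative value, -0.13, with library totals alone. Mir132 was at 1782, 1177, 1032, 1231 and 2112 CPM in primed EVs 1 to 5, against 1510, 1094, 826, 908 and 1024 CPM in naive EVs. Primed EV 1 and 5 were above all naive libraries and the other 3 lay among them (log2 fold change 0.45, SE 0.25, edgeR quasi-likelihood adjusted p = 0.529). Mir212 had 438, 321, 158, 219 and 432 CPM in primed EVs, against 383, 277, 183, 203 and 269 CPM in naive EVs (0.25, SE 0.31, edgeR quasi-likelihood adjusted p = 0.83). As for Mir132, primed EV 1 and 5 were the 2 highest primed libraries and primed EV 3 the lowest, and its log2 fold change was -0.06 with library totals alone.

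In all, 0 of the 4 members tested passed edgeR's test in EV priming, where 0.816% of all 245 loci did, all of them higher. At an unadjusted p under 0.05 the count was 1, Mir155, by edgeR, DESeq2 and limma-voom alike (10.2% of all loci by edgeR), and 0 passed adjustment with either of the other tools. Over all loci the median was 0.02 on the log2 scale, and the 4 members lay between 0.14 and 0.66.

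In the cells the same comparison gave another order. Mir155 had 966, 1365, 1630 and 2170 CPM in primed ASC 2 to 5, against 821, 1419, 1879 and 1030 CPM in naive ASC 1, 3, 4 and 5. The 2 ranges overlapped, and only primed ASC 5 lay above all naive libraries. The log2 fold change was 0.25 (SE 0.29, edgeR quasi-likelihood adjusted p = 0.642). Mir146 had 35.4, 72.6, 66.4 and 68.3 CPM in primed ASC, against 27.4, 60.4, 56.9 and 18.5 CPM in naive ASC. Of the 4 primed libraries 3 were above all naive ones, and the log2 fold change of 0.53 (SE 0.54) had an edgeR quasi-likelihood adjusted p of 0.578, at 16 to 55 counts per primed and 15 to 66 per naive library.

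Mir132 and Mir212 took negative values in primed cells. Mir132 had 1246, 1196, 1510 and 2342 CPM in primed ASC 2 to 5, against 2008, 1458, 1770 and 2676 CPM in naive ASC 1, 3, 4 and 5 (log2 fold change -0.33, SE 0.27, edgeR quasi-likelihood adjusted p = 0.475). Mir212 had 273, 175, 199 and 396 CPM in primed ASC, against 411, 239, 276 and 522 CPM in naive ASC (-0.46, SE 0.35, edgeR quasi-likelihood adjusted p = 0.442). For both loci 2 of the 4 primed libraries lay below all naive ones, and primed ASC 5 was among the high values. Over the 4 members tested 0 passed, against 10.2% of all loci (5.31% higher and 4.9% lower), and 0 had an unadjusted p under 0.05 by edgeR, DESeq2 or limma-voom, against 23.3% of all loci by edgeR. No member was free of overlap, where 11.4% of all loci were. Over all loci the median was -0.12 on the log2 scale. With relative log expression scaling the calls over all loci split into 18 higher and 5 lower, in place of 13 and 12.

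The priming difference in EVs minus that in ASC was tested as an interaction. It was 0.78 for Mir132 (SE 0.37), 0.71 for Mir212 (SE 0.47), 0.41 for Mir155 (SE 0.39) and -0.39 for Mir146 (SE 0.71) on the log2 scale. The unadjusted p of Mir132 was 0.0472 in edgeR's quasi-likelihood test, and the edgeR adjusted p-values of the 4 ran from 0.412 to 0.878. None of the 4 passed, and 0% of the 245 loci did. At an unadjusted p under 0.05 the members' count was 1 by edgeR, where 10.6% of all loci stood, and 0 by DESeq2 and limma-voom, and adjusted it was 0 by both of those. When primed EV 1 and 5 were summed into 1 library, an alternative added after the data were seen, the value of Mir132 was 0.46. The opposite signs of Mir132 and Mir212 in EVs and ASC thus came with a difference that was tested and did not pass.

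**Figure D2:**
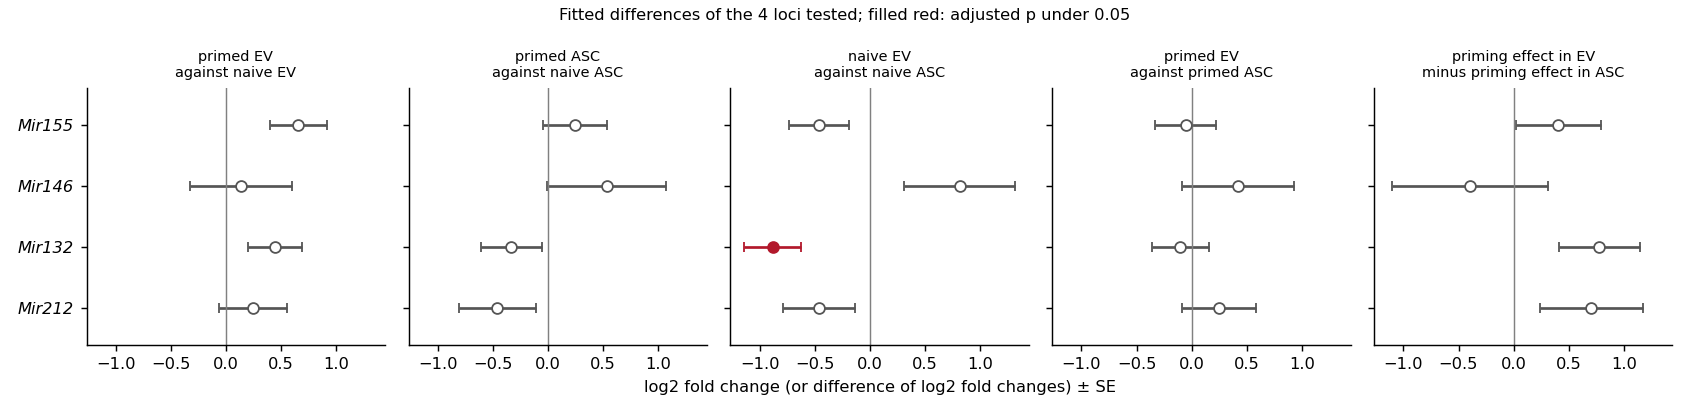
Fitted log2 fold change (first 4 panels) or difference of log2 fold changes (last panel) with SE for the 4 loci tested, in 5 comparisons; filled red points passed an adjusted p of 0.05. Of the 20 values 1 passed, Mir132 in naive EVs against naive ASC at -0.88.

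EVs were then set against the cells. Mir132 was lower in naive EVs, at 1510, 1094, 826, 908 and 1024 CPM in naive EVs 1 to 5, against 2008, 1458, 1770 and 2676 CPM in naive ASC 1, 3, 4 and 5. Of the 5 EV libraries 4 were below all cell libraries, and naive EV 1 was just above naive ASC 3. The level was 0.542 of that in cells (log2 fold change -0.88, SE 0.26, edgeR quasi-likelihood adjusted p = 0.00567). As shares of raw counts the groups did not overlap, at 0.0663% to 0.137% in naive EVs and 0.172% to 0.417% in naive ASC. The call rested on naive ASC 5, the library with the highest Mir132 and the largest TMM factor: without it the log2 fold change was -0.56 (edgeR quasi-likelihood adjusted p = 0.0996). Mir132 was the 1 member of 4 that passed, and 66.1% of all 245 loci passed in this comparison (33.5% higher and 32.7% lower), so a call here does not set it apart. At an unadjusted p under 0.05 it was again 1 of 4, against 68.6% of all loci, and 58.4% of all loci were free of overlap in CPM, where no member was.

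The other members overlapped between naive EVs and naive ASC. Mir155 averaged 935 ± 104 CPM in naive EVs (SD, n = 5) and 1287 ± 466 in naive ASC (n = 4), with all EV libraries inside the range of the cells (log2 fold change -0.46, SE 0.27, edgeR quasi-likelihood adjusted p = 0.142). Mir212 averaged 263 ± 78.7 CPM in naive EVs and 362 ± 130 in naive ASC (-0.46, SE 0.33, edgeR quasi-likelihood adjusted p = 0.218). Mir146 averaged 72.7 ± 47.4 CPM in naive EVs and 40.8 ± 20.95 in naive ASC (0.82, SE 0.50, edgeR quasi-likelihood adjusted p = 0.156). It was the only 1 of the 4 with a positive value, and 3 of its 5 EV libraries were above all cell libraries. Scaled by library totals alone, the median over all loci was -0.70 in place of -0.24, the calls split into 65 higher and 116 lower in place of 82 and 80, and Mir155 (-0.92) and Mir212 (-0.96) passed too. Relative to those medians Mir155 was at -0.22 and -0.21 and Mir132 at -0.65 and -0.68 under the 2 scalings.

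The same comparison was made between primed EVs and primed ASC. Mir155 averaged 1476 ± 552 CPM in primed EVs (SD, n = 5) and 1533 ± 505 in primed ASC (n = 4), and Mir132 averaged 1467 ± 460 and 1573 ± 530 CPM. The log2 fold changes were -0.05 (SE 0.28) and -0.10 (SE 0.26). Mir146 at 0.42 (SE 0.51) and Mir212 at 0.25 (SE 0.33) had positive values. Of the 4 members 0 passed, where 68.2% of all loci did (35.9% higher and 32.2% lower), and 0 had an unadjusted p under 0.05 by edgeR, DESeq2 or limma-voom, where 70.6% of all loci did by edgeR. All 4 overlapped between the groups in CPM, while 53.5% of all loci did not. Scaled by library totals alone, the median over all loci was -0.69 in place of 0.02, and the calls split into 58 higher and 118 lower in place of 88 and 79. Under that scaling Mir155 (-0.78) and Mir132 (-0.81) passed as lower, and Mir146 (-0.31) and Mir212 (-0.43) changed sign without passing.

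Ordered by mean, Mir155 was highest in primed ASC, then primed EVs, naive ASC and naive EVs. Mir146 ran from primed EVs through naive EVs and primed ASC to naive ASC, and Mir132 from naive ASC through primed ASC and primed EVs to naive EVs. Mir212 ran from naive ASC through primed EVs and naive EVs to primed ASC. For every locus each group overlapped with its neighbour in the order, so neighbours did not differ beyond their spread.

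Mir146b was counted at 2 to 11 reads per library in primed EVs, 4 to 9 in naive EVs, 2 to 16 in primed ASC and 2 to 10 in naive ASC, and did not pass the filter on low counts. Summed over a group it had 33, 33, 32 and 26 counts in that order. That is 4.72 CPM (95% exact Poisson interval 3.25 to 6.63) in primed EVs, 5.77 (3.97 to 8.10) in naive EVs, 15.4 (10.5 to 21.7) in primed ASC and 9.14 (5.97 to 13.4) in naive ASC, before TMM scaling. The intervals cover counting error of the summed reads only and leave out the spread between libraries. Reads carry no molecular identifiers. Averaged over libraries after TMM scaling, Mir146b was at 8.08 ± 6.41 CPM in primed EVs and 7.06 ± 1.98 in naive EVs (SD, n = 5 each). In primed ASC it was at 11.9 ± 2.76 and in naive ASC at 6.80 ± 2.41 (SD, n = 4 each). Of the 4 primed ASC libraries 3 were above all naive ASC ones in CPM, with no test on so few counts.

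Ratios of the loci that share a seed were taken within each library, which frees them from the scaling between libraries. Counts of Mir132 were 4.06, 3.66, 6.48, 5.61 and 4.87 times those of Mir212 in primed EVs 1 to 5 and 3.93, 3.94, 4.50, 4.46 and 3.79 times in naive EVs 1 to 5, with 1 added to each count. They were 4.55, 6.76, 7.45 and 5.90 times those of Mir212 in primed ASC 2 to 5 and 4.86, 6.09, 6.39 and 5.12 times in naive ASC 1, 3, 4 and 5. All 5 naive EV ratios lay below all 4 of naive ASC. The mean log2 ratio was 2.04 ± 0.114 in naive EVs (SD, n = 5) and 2.48 ± 0.190 in naive ASC (n = 4), a difference of -0.44 with a two-sided exact permutation p of 0.0159, the smallest this design allows. Adjusted by Benjamini-Hochberg over the 8 ratio tests this exact test had p = 0.127 and did not pass. That is also the lowest adjusted value a single difference could have in this comparison, so the adjustment could not have been passed by it alone.

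The remaining ratio comparisons had larger p-values, under the same limit of the design. Between primed EVs (2.27 ± 0.334) and primed ASC (2.60 ± 0.309) the log2 ratio of Mir132 to Mir212 differed by -0.33 (exact permutation p = 0.175, adjusted 0.381). The priming differences of this ratio were 0.23 in EVs and 0.12 in ASC (exact permutation p = 0.183 and 0.543). The log2 ratio of Mir146 to Mir146b was 3.15 ± 1.79 in primed EVs, 3.03 ± 0.741 in naive EVs, 2.11 ± 0.598 in primed ASC and 2.28 ± 0.740 in naive ASC. Mir146 was the more abundant form in all 18 libraries, from 1.20 times Mir146b in primed EV 5 to 33.0 times in primed EV 4. None of its 4 comparisons passed (exact permutation p from 0.190 to 0.913), on 2 to 16 Mir146b counts per library.

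**Figure D3:**
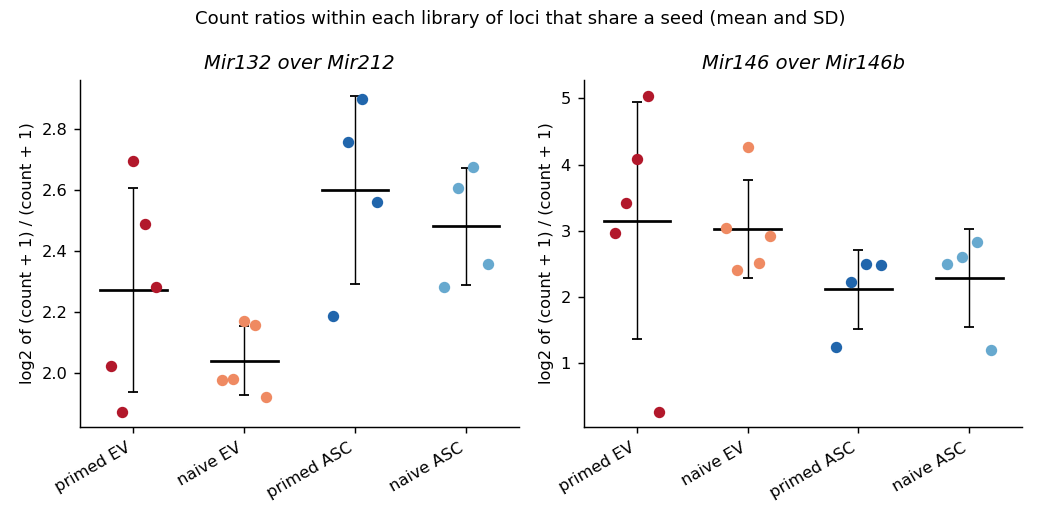
Log2 ratio of counts, with 1 added to each, of Mir132 to Mir212 (left) and of Mir146 to Mir146b (right) in every library; points are libraries, lines means and bars SD. The 5 naive EV points of Mir132 to Mir212 (1.92 to 2.17) sit below the 4 naive ASC points (2.28 to 2.68), while for Mir146 to Mir146b all groups overlap.

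Mir132 and Mir212 were each other's nearest locus in profile. Likeness was the root mean square difference between log2 CPM profiles over the 18 libraries, each centred on its own mean. For Mir132 the nearest of 244 other loci was Mir212, at 0.31 log2 units, followed by Mir134 of the Dlk1-Dio3 cluster at 0.32. Mir212 was nearest to Mir132 at 0.31 and to Mir134 at 0.38, where the median over all loci was 0.94 and 0.99 for the 2 members. Mir155 was nearest to Mirlet7c-2 (0.28) and Mir152 (0.36), both on other chromosomes. Mir146 had no close neighbour, with Mir181c and Mir128-1 nearest at 0.60 and 0.61, and Mir155 came 14th at 0.73. These distances describe the 18 libraries and share their scaling and depth.

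The high libraries of Mir132 and Mir212 shared a title number, a pattern looked for after the values were seen. Primed EV 1 and 5 both have titles that start with the number 5, and were the 2 highest primed EV libraries for each locus. Primed ASC 5 and naive ASC 5, whose titles start with the same number, were the highest of their groups for both loci. Naive EV 5 was not, and ranked 3rd of 5 for both. Naive EV 1 and naive ASC 1 have titles that start with 1+2, and naive EV 2 has one that starts with 2. The labels do not say what these numbers stand for, so whether naive EV 1 and 2 share a source is not known either. With primed EV 1 and 5 summed into 1 library, the EV priming value was 0.21 for Mir132 in place of 0.45, -0.00048 for Mir212 in place of 0.25, and 0.62 for Mir155 in place of 0.66.

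Other miRNAs linked to NF-kB, cytokine or interferon signals were set beside the members. Of a list of 23 such loci 17 passed the filter. Mir125b-1 and Mir21a of this list are also among the listed mesenchymal loci, and Mir223 is among the haematopoietic loci read below. In EV priming edgeR called 0.816% of all 245 loci higher and 0% lower (16 and 9 loci at an unadjusted p under 0.05, and adjusted 3 and 2 by DESeq2 and 2 and 0 by limma-voom). Of the listed loci 1 was higher and 0 lower by edgeR (3 and 1 at an unadjusted p under 0.05, and adjusted 2 and 1 by DESeq2 and 1 and 0 by limma-voom). That locus was Mir147, a miRNA of the macrophage response to microbial products, at 129 ± 87.7 CPM in primed EVs and 14.7 ± 5.62 CPM in naive EVs (SD, n = 5 each; log2 fold change 3.15, edgeR quasi-likelihood adjusted p = 0.000827). In ASC priming edgeR called 5.31% of all 245 loci higher and 4.9% lower (29 and 28 loci unadjusted, and adjusted 28 and 12 by DESeq2 and 12 and 10 by limma-voom). Of the listed loci 4 were higher and 0 lower by edgeR (6 and 2 unadjusted, and adjusted 6 and 0 by DESeq2 and 3 and 0 by limma-voom). These were Mir147 (2.71, SE 0.76), Mir125b-2 (0.98, SE 0.18), Mir125a (0.82, SE 0.18) and Mir125b-1 (0.68, SE 0.16), the last 3 of the miR-125 family. The list's median log2 fold change was 0.20 in EV priming and 0.33 in ASC priming, beside 0.02 and -0.12 over all loci. The list was chosen with earlier results of these data known, so its calls and medians, here and below, are no independent test.

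In naive EVs against naive ASC 4 of the 17 listed loci were higher and 5 lower, beside 33.5% and 32.7% over all loci. For primed EVs against primed ASC the list had 8 higher and 6 lower, beside 35.9% and 32.2% over all loci. Their medians were 0.17 and 0.37, beside -0.24 and 0.02 over all loci. In the interaction 0 of the listed loci passed by edgeR and limma-voom, as over all loci, and 1 was lower by DESeq2, beside 3 of all 245. At an unadjusted p under 0.05 edgeR had 1 listed locus, beside 10.6% of all loci. DESeq2 had 5 listed loci lower at that level, beside 29 of all 245. On this scale Mir147 moved in both materials, while Mir155, Mir146, Mir132 and Mir212 passed in neither.

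**Figure D4:**
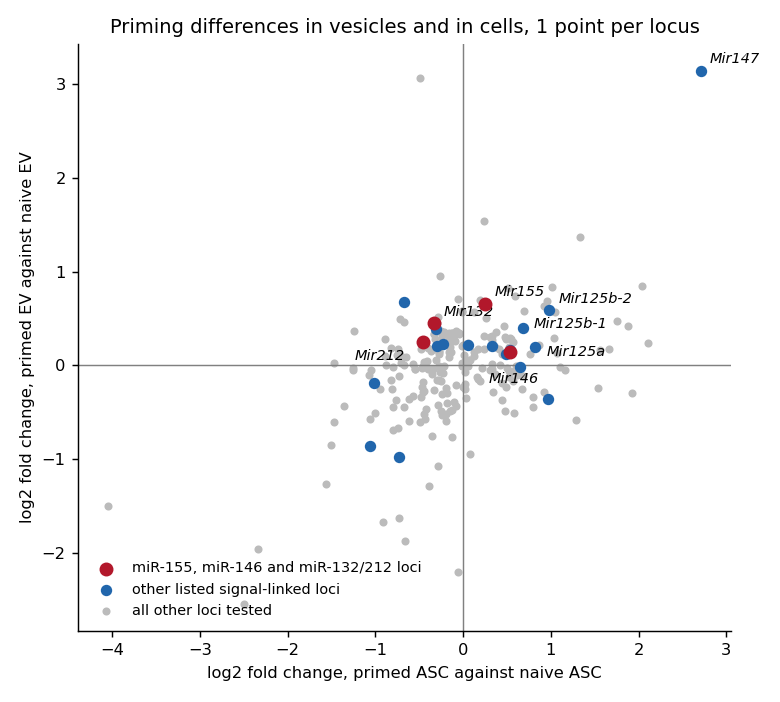
Log2 fold change on priming in EVs (vertical) against that in ASC (horizontal) for the 245 loci tested, 1 point per locus; red points are Mir155, Mir146, Mir132 and Mir212, blue points the other listed signal-linked loci, grey points the rest. Mir147 lies far up and right at 3.15 and 2.71, and the 4 red points lie within 0.66 of 0 on both axes.

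Blood cells can carry miR-155 and miR-146, so a list of 8 haematopoietic loci was read in each library. The 6 of them in the files all had counts in every group. Together they took 0.147% to 0.625% of counts in primed EVs (median 0.422%) and 0.361% to 1.49% in naive EVs (median 0.461%). In cells the range was 0.00916% to 0.0559% in primed ASC and 0.0128% to 0.0214% in naive ASC. In naive and in primed EVs all 6 were higher than in cells by edgeR, beside 33.5% and 35.9% of all loci. Mir155 had log2 fold changes of -0.46 and -0.05 there and Mir146 of 0.82 and 0.42, and none of these 4 values passed. In EV priming 0 of the 6 passed by edgeR, DESeq2 or limma-voom, with 0 at an unadjusted p under 0.05 by each. By edgeR 0.816% of all loci passed there and 10.2% had such an unadjusted p, so 0 of 6 does not set them apart. In ASC priming 0 of the 6 passed by these tools, with 2 higher at an unadjusted DESeq2 p under 0.05 (43 of all 245 loci). Their median log2 fold change was 0.70 in ASC priming and -1.08 in the interaction, beside -0.12 and 0.08 over all loci. Primed EV 4, with the most Mir155 of the primed EVs, also held their largest blood-cell share (0.625%), and primed ASC 5, with the most Mir155 of the primed ASC, held the smallest (0.00916%). Naive EV 4 held the largest blood-cell share of all libraries, 1.49%, at 0.0825% Mir155. The endothelial locus Mir126a took 0.198% to 0.496% in primed EVs, 0.318% to 0.902% in naive EVs, 0.00601% to 0.0592% in primed ASC and 0.0105% to 0.0288% in naive ASC. The part of these cell types in the members' levels was not tested.

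**Figure D5:**
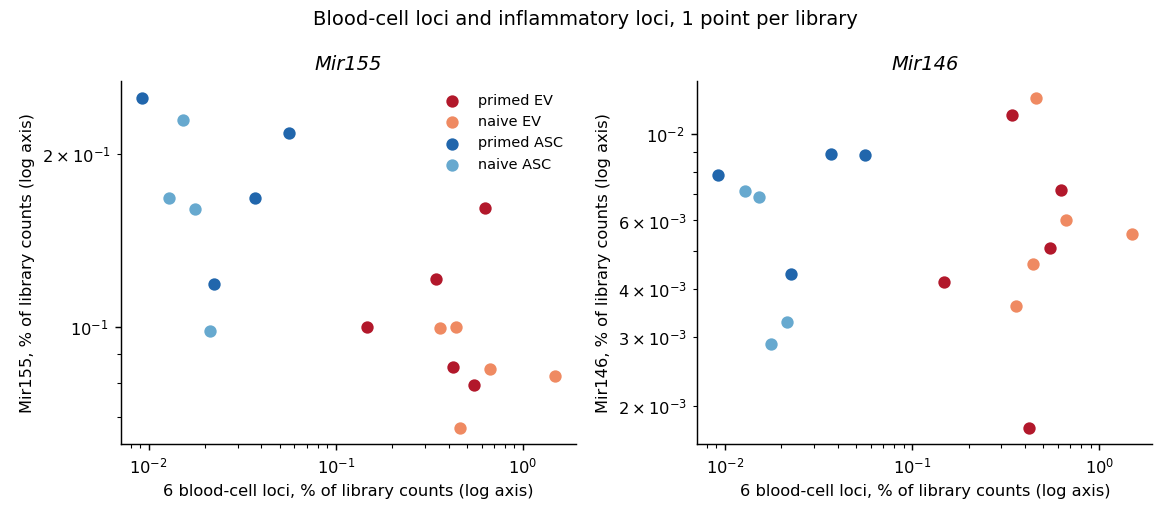
Share of library counts on Mir155 (left) and Mir146 (right) against the share on 6 blood-cell loci, both axes logarithmic, 1 point per library. The 10 EV points stand at 0.147% or more on the horizontal axis and the 8 ASC points at 0.0559% or less, and for Mir155 no EV point lies above the highest ASC point (0.250%). For Mir146 2 EV points (0.0124% in naive EV 3 and 0.0112% in primed EV 3) lie above the highest ASC point (0.00891%). Primed EV 5 (0.00175%) lies below the lowest ASC point (0.00288% in naive ASC 5), and the other EV points lie within the range of the ASC points.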

How the data were processed

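The authors deposited 1 file of raw read counts per library, 1 count per hairpin locus. Per the file headers they used featureCounts 1.5.3 with an Ensembl release 76 annotation and unstranded counting. Per the submitters' processing notes the reads went through bcl2fastq and STAR 2.0.4 to GRCm38, and featureCounts is given there as 1.45. How reads were trimmed is not stated. Of 2009 loci 1899 matched GENCODE M21 by identifier.

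Loci were kept by filterByExpr (minimum count 10), which left 245 with 99.9573% of counts. edgeR 4.0.16 (R 4.3.3) with TMM scaling fitted 1 mean per group to 18 libraries and tested 5 contrasts by quasi-likelihood, with Benjamini-Hochberg adjustment over the 245 loci at 0.05. Each SE was approximated by dividing the fitted change, without its sign, by the root of its F statistic. The fit was tested on simulated data. Count ratios used exact permutation tests (scipy 1.17.1). Alternatives were DESeq2 1.42.0, limma 3.58.1 voom, scaling, filter, thinning, blocks and leaving out libraries. The genes named are the 5 members, the 2 loci most similar to each, and up to 4 listed signal-linked loci called in a priming comparison. The members and lists were chosen with earlier results of these data known.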

Additional observations from a re-analysis of the deposited data

Results flagged for a closer look

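Of 28 groups of values examined for a library far from the rest, 2 were picked out, and chance picks out about 1 in 20. Both concern Mir146. Naive EV 3 held 155 CPM (172 counts), where the other 4 naive EV libraries held 39.7 to 64.7 CPM. Primed ASC 2 held 35.4 CPM (39 counts), where the other 3 primed ASC libraries held 66.4 to 72.6 CPM. Without naive EV 3 the Mir146 difference of priming effects was 0.03 in place of -0.39 on the log2 scale.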

How the results depend on the processing

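Between naive EVs and naive ASC 1 member passed. With library totals alone 3 passed (Mir155, Mir132 and Mir212), with the replicate block by source name or by title 3 passed (Mir146, Mir132 and Mir212; by source name Mir146 at 0.95 with an edgeR adjusted p of 0.0247 and Mir212 at -0.46 with 0.0303), and leaving out 1 library gave 0 to 1. Between primed EVs and primed ASC 2 passed with library totals alone, and 0 in the other settings. In the main fit 66.1% of all loci passed between naive EVs and naive ASC and 68.2% between primed EVs and primed ASC. The share of all loci under the blocks is not given here, so these counts do not set the members apart.

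Members changed sign without passing as follows. In EV priming, library totals alone gave Mir146 -0.13 and Mir212 -0.055, summing primed EV 1 and 5 gave Mir212 -0.00048, and leaving out 1 library gave Mir146 -0.15 to 0.66. In primed EVs against primed ASC, library totals alone gave Mir146 -0.31 and Mir212 -0.43, no filter gave Mir155 0.040, and leaving out 1 library gave Mir155 -0.29 to 0.14 and Mir132 -0.30 to 0.14. In the interaction, leaving out 1 library gave Mir146 -0.78 to 0.034. For ASC priming the log2 ratio of Mir132 to Mir212 was -0.015 after thinning, and that of Mir146 to Mir146b was 0.21 after thinning and 0.19 with the replicate block. Leaving out 1 library, the ratio of Mir146 to Mir146b ran from -0.35 to 0.85 in EV priming and from -0.54 to 0.12 in ASC priming. The causes were not tested. Of 196 member values under other settings 182 kept direction and side of the threshold, as did 353 of 360 without 1 library.

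Over all loci EV priming had 2 calls, against 8 with no filter, 5 by DESeq2, 7 with the block by title and 1 with library totals alone or with primed EV 1 and 5 summed. ASC priming had 25, against 40 by DESeq2 and 15 with only the 2 groups fitted. The interaction had 0, against 3 with no filter and 3 by DESeq2.

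The samples share only a number, not a stated origin. Same-numbered libraries correlated in their deviations from group means at -0.16 to 0.52, and by source name the share of pairs in which a library correlated best with its own number was 2 of 5 for primed with naive EVs, 2 of 3 for primed with naive ASC, 3 of 4 for naive EVs with naive ASC and 2 of 4 for primed EVs with primed ASC. This is a hint from the data and not from the design. The title number 1+2 of naive EV 1 and naive ASC 1 was counted as different from 2. The highest correlation of any pair, 0.66, was between primed EV 2 (title number 2) and naive EV 1 (1+2), and is outside the range above. With the replicate block by source name Mir155 in EV priming was at 0.58 (edgeR adjusted p = 0.189). Depth limits Mir146b most, at 2 to 16 counts per library.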
